A study of Mus musculus with 3 samples.

Results

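The genes of the SLIT ligands, the ROBO receptors and the SRGAP proteins were examined for NKX2-5 binding in the embryonic mouse heart. The set held 9 genes, namely Slit1, Slit2, Slit3, Robo1, Robo2, Robo4, Srgap1, Srgap2 and Srgap3, and Srgap1 was selected on its measured peak score. Their peaks were chosen by distance, as those with a midpoint within 100 kb of the gene body in GENCODE M1, the gene annotation of the mm9 assembly. This took in 8 of the 4418 peaks of library S1, 16 of the 5441 peaks of library S4 and 5 of the 2546 regions found in both. NKX2-5, a homeodomain protein, regulates transcription in the early cardiac lineage. Chromatin was immunoprecipitated with an NKX2-5 antibody from wild-type hearts of Parkes mice at E11.5 and sequenced (ChIP-seq), in the ChIP libraries S1 and S4. The 1 Input library, from hearts of the same strain and stage, was not analysed here.

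Enriched regions, called peaks below, were listed separately for each library, and whether S1 and S4 came from separate pools of hearts was not given in the sources used here. The score of a peak grows with the evidence of the caller against the background of that library, as 10 times the negative log10 of a p-value. A fold between scores below is therefore a ratio of such values and not a fold of binding. Read numbers were not used here, so depth is unknown, and a difference in score between the libraries cannot be told apart from depth. With 1 condition and 2 libraries no test was made. Values are descriptions, and the agreement of the lists is the replicate check. Peaks are sites on 1 genome and are not replicates of each other. No expression was measured in these libraries, so the tissue label was not checked against marker genes.

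SLIT proteins are large secreted glycoproteins that bind the immunoglobulin-like domains of ROBO receptors on the cell surface. ROBO receptors have no enzymatic activity of their own and act through adaptors, among them the GTPase-activating proteins of the SRGAP family, which switch off small GTPases and bend membranes through their F-BAR domains. The pathway is best known for turning axons away from the midline. In the developing heart, Slit and Robo genes are known for roles in the pericardium, the systemic veins, septa and the valves.

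Slit3, Robo2, Srgap1 and Srgap3, 4 of the 9 genes, held a region found in both libraries, where 24.3% of protein-coding genes had one within 100 kb. Each of these regions lay in an intron. The regions were 2 in Slit3 and 1 in each of the other genes. The sequences of 200 bases below are shown because they hold many, though not all, of the matches to NKX2-5 and MEIS1 motifs described further on, including both spaced pairs. They are the plus strand of mm9, written 5′ to 3′. Capitals mark AAGTG, the NKX2-5 core, TNAAGTG, its longer form, TGACA, the core of the homeodomain factor MEIS1, and GTGNTGACA, in which GTG stands 1 base before TGACA. A match on the minus strand appears as its reverse complement, so that AAGTG is seen as CACTT.
Slit3 intron 4, chr11:35241547-35241746: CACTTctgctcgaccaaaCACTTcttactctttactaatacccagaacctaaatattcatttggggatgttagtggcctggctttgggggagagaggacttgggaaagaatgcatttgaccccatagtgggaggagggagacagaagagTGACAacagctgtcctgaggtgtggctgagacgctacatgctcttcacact
Slit3 intron 7, chr11:35383516-35383715: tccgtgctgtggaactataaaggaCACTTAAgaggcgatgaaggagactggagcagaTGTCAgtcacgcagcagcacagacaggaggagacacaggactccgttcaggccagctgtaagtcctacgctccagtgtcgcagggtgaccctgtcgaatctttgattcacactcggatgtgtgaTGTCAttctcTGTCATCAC
Robo2 intron 5, chr16:74022688-74022887: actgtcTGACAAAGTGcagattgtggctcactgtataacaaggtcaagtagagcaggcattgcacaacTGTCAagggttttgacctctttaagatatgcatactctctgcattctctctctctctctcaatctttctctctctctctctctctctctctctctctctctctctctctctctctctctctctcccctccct
Srgap1 intron 1, chr10:121462356-121462555: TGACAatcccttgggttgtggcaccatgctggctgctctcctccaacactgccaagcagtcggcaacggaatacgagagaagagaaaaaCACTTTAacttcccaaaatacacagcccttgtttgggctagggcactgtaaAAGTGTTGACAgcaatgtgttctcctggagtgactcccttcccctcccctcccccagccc
Srgap3 intron 1, chr6:112846537-112846736: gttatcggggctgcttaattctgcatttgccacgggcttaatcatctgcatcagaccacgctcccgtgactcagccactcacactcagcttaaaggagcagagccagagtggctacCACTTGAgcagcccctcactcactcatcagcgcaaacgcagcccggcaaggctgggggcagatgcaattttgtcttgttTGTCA

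The plot of peak positions shows how unevenly the members were covered. Of the 9 members, 6 had a peak in S1, where 38.4% of 22350 protein-coding genes had one in the same distance. In S4 it was 8 of 9, against 44.7% of those genes. A shared region was found at 4 of 9, against 24.3%. Nothing is read from these counts, because the members were chosen with the peaks known and are long. Among the 2399 protein-coding genes of at least 100 kb, 36.1% had a shared region within 100 kb and 22.4% had one inside the body. Of the members 8 were of this length, all but Robo4, and 4 of them held a shared region in the body.

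**Figure D1:**
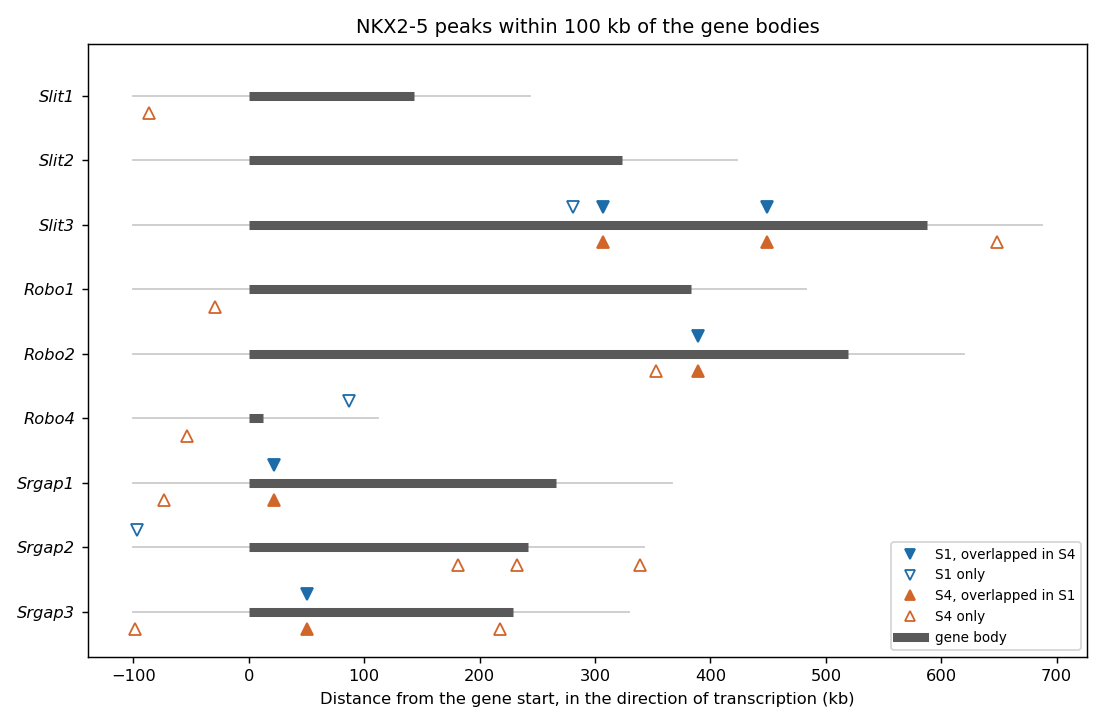
Position of each peak near the 9 genes, in kb from the gene start in the direction of transcription. Triangles pointing down are S1 peaks, triangles pointing up are S4 peaks, filled symbols overlap a peak of the other library, grey bars are gene bodies and thin lines the 100 kb on each side. All 5 shared regions lie inside a gene body, and Slit2 has no peak in either library.

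Per length of genome, shared regions were about as dense around the members as around other genes. The members' bodies with 100 kb on each side spanned 4.51 Mb and held 1.11 shared regions per Mb, against 1.19 over all protein-coding genes and 1.23 over those of at least 100 kb. Inside the bodies alone the density was 1.85 per Mb, against 1.32 and 1.26. For single libraries the windows held 1.78 peaks per Mb in S1 (2.11 over all protein-coding genes) and 3.55 in S4 (2.60). S4 thus had 2 times as many peaks near the members as S1, while over the whole lists it had 1.23 times as many. The mean was 12.0 ± 5.66 peaks (SD, n = 2 libraries).

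Most of these peaks in S1, but a minority in S4, had a partner in the other library. Of the S1 peaks near the members, 5 of 8 overlapped at least 1 bp of an S4 peak (62.5%, exact Clopper-Pearson 95% interval 24.5 to 91.5), against 58.9% of all S1 peaks. Of the S4 peaks, 5 of 16 overlapped an S1 peak (31.2%, 11 to 58.7), against 47.0% of all S4 peaks. The intervals cover counting error only and rest on the same 5 overlapping pairs. They are no test against the whole list, because the members were chosen with the peaks known. The other 14 of the 24 peaks were found in 1 library.

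Among the ligands, Slit3 was the gene with most shared regions of the set. Slit3 encodes the SLIT ligand known for its role in the diaphragm and in heart septa, and it has the longest body here, 587.3 kb at chr11:34934726-35522009 on the plus strand. Its shared region in intron 4 of 35 covered chr11:35241484-35241842. That region scored 183.44 in S1 with a width of 359 bp, and 159.42 in S4 with a width of 693 bp. It lay 306.9 kb from the gene start in an intron of 273.3 kb. The log2 ratio, S4 over S1, was -0.20, and 75.4% of all shared regions differed more between the libraries.

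The Slit3 region in intron 7 of 35, at chr11:35383235-35383910, was the stronger of the pair in S1. Its score was 364.47 in S1, with a width of 1261 bp, and 168.03 in S4, with a width of 736 bp. This is a log2 ratio of -1.12, or 2.17-fold higher in S1, and 10.6% of all shared regions differed more. The midpoints of these peaks lay 322 bp apart, the widest gap among the 5 regions, and 53.6% of the S1 peak was covered by the S4 peak. The region lay 448.8 kb from the gene start, in an intron of 5.87 kb. The start of a shorter Slit3 transcript was closer, 25.1 kb from the S1 peak and 25.4 kb from the S4 peak. The Slit3 regions were 141.9 kb from each other, so each was the other's nearest shared region.

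Slit3 had 1 more peak in each library, and neither had a partner. In S1 it lay in intron 4 at chr11:35215292-35215963 with a score of 154.28. In S4 it lay 60.8 kb past the end of the gene at chr11:35582455-35583138 with a score of 160.7, and its midpoint was at -0.190 kb from the start of Pank3, which encodes a pantothenate kinase. The S4 peak is therefore a promoter position of another gene inside the Slit3 window.

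The other ligand genes showed little. Slit1, a SLIT ligand known mainly from the nervous system, is a gene of 143.4 kb at chr19:41674747-41818155 on the minus strand. It had no peak in S1 and 1 in S4, at chr19:41903916-41904496 with a score of 172. That peak was 86.1 kb upstream of the gene and at -0.452 kb from the annotated start of Frat1. Slit2, the ligand that together with Slit3 is studied in heart and vessel development, is a gene of 323.1 kb at chr5:48374394-48697521. It was the 1 member of 9 with no peak in either library. The nearest was just outside the limit, 113.4 kb upstream in S1 with a score of 204.55 and 113.3 kb upstream in S4 with a score of 427.33, and these peaks overlapped each other at chr5:48260611-48261333.

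Of the receptor genes, Robo2 was the 1 with a region in both libraries. Robo2 encodes an axon guidance receptor that is also needed for the ureter, and its body of 519.5 kb lies at chr16:73892551-74412070 on the minus strand. The region was in intron 5 of 27 at chr16:74022593-74022983, 389.3 kb from the gene start. It scored 151.29 in S1 with a width of 391 bp and 455.56 in S4 with a width of 441 bp. This was the most uneven of the 5 regions, 3.01-fold higher in S4 with a log2 ratio of 1.59, and 2.55% of all shared regions differed more. In S1 it ranked 3833 of 4418, and in S4 838 of 5441. The positions matched closely even so, with midpoints 20 bp apart. RefSeq gave 3 promoters for Robo2, so the distance holds for the GENCODE M1 body.

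Robo2 had a further peak in S4, in intron 2 of 27 at chr16:74058742-74059534, with a score of 174.52. Its midpoint was 0.140 kb from the start of a SNORA70 annotation, a small nucleolar RNA that lies within the intron. The next shared region was 799.3 kb away from the one in intron 5, between the end of Robo2 and Robo1. At Robo1, the receptor most studied in heart septa and veins, no S1 peak was found over 382.9 kb of body at chr16:72663394-73046340. S4 had 1 peak with a score of 187.76 at chr16:72634413-72634847, in intergenic sequence 28.8 kb upstream.

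Robo4, the receptor of endothelial cells, is the shortest member with a body of 12.1 kb at chr9:37209482-37221608. Its peaks differed between the libraries and both lay at other genes. The S1 peak at chr9:37296570-37297057 scored 168.6 and lay 75.2 kb past the end of Robo4, at -0.0930 kb from the start of BC024479. The S4 peak at chr9:37155639-37156442 scored 149.89 and lay 53.4 kb upstream, at -0.0630 kb from the start of Ccdc15. Robo3 lies in the same window, and these same peaks are the ones within 100 kb of it.

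Srgap1 carried the highest score of the set. SRGAP1 is a GTPase-activating protein that binds the cytoplasmic tail of ROBO1 and turns off CDC42. Its gene is 266.3 kb long at chr10:121218047-121484371 on the minus strand. The region covered chr10:121462108-121463142 in intron 1 of 21, an intron of 115.6 kb, and lay 21.7 kb from the gene start, at 8.17% of the body. It scored 3100 in S1 with a width of 1035 bp, and 3100 in S4 with a width of 1366 bp. The S4 peak contained the whole S1 peak, and their midpoints were 85 bp apart.

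The value 3100 was the highest in each list and was shared by 9 S1 peaks and 13 S4 peaks, with 3095 and 3097 as the next scores. The top value may therefore be a ceiling, and folds to it are lower bounds. Against the next member the Srgap1 region was at least 8.51-fold higher in S1, where Slit3 followed with 364.47 at rank 894. It was at least 6.80-fold higher in S4, where Robo2 followed with 455.56 at rank 838. Srgap1 was selected on this score, so the folds describe it and are not a test. No other member came near the top of either list, as the plot of scores by gene shows.

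**Figure D2:**
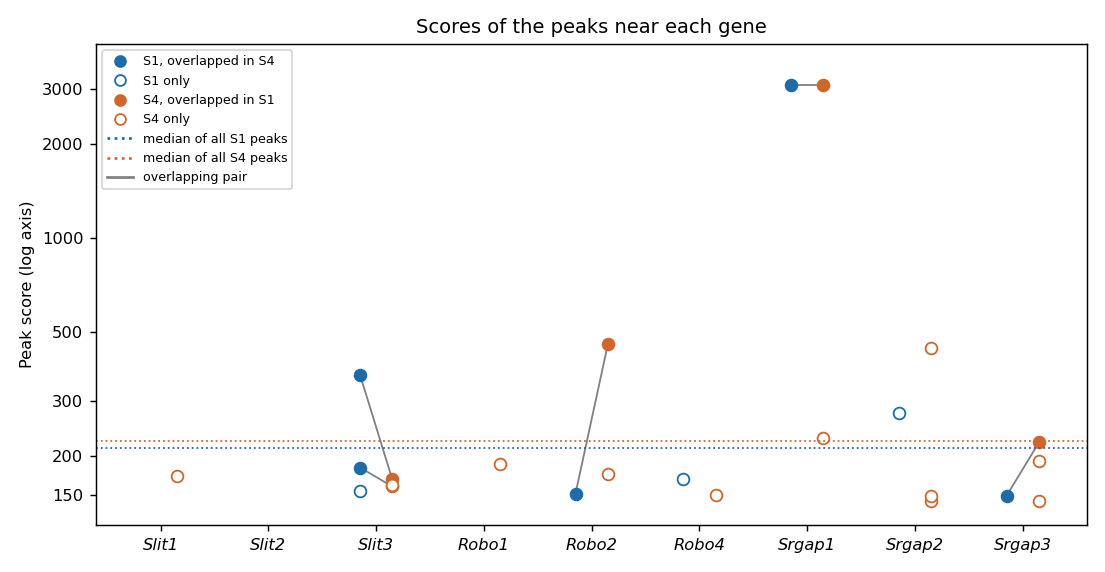
Score of each peak near the 9 genes on a log axis. Blue circles are S1 peaks and orange circles S4 peaks, filled circles overlap a peak of the other library, grey lines join overlapping pairs, and dotted lines are the medians over each list, 211.8 in S1 and 223.2 in S4. The Srgap1 pair is at 3100 and all other peaks are at 455.56 or less.

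The Srgap1 region was far from other shared regions, but so were those of Robo2 and Srgap3. The nearest other shared region was 549.9 kb from that of Srgap1, 799.3 kb from that of Robo2 and 388.8 kb from that of Srgap3. The median over all shared regions was 151.7 kb. Of all shared regions, 21.6% were farther from the next than Srgap1, 13.6% than Robo2 and 28.8% than Srgap3. Within 100 kb of Srgap1, S4 had 1 further peak and S1 none. That S4 peak, at chr10:121557593-121558413, scored 227.65 and lay 73.6 kb upstream of Srgap1, and the nearest coding start to it was that of Tmem5, with the peak at -23.6 kb.

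Regions at 3100 in both lists numbered 6, of which 4 were intronic. Besides Srgap1, these lay in Rgs3, a regulator of G-protein signalling, in Sipa1l3, a Rap GTPase-activating protein, and in Odz4, a teneurin. The Rgs3 region was in intron 2 of 19, 10.4 kb from the start, and the Sipa1l3 region in intron 2 of 22, 43.7 kb from the start. The Odz4 region was in intron 7 of 32, 490.2 kb from the start. Within 100 kb of their bodies, Odz4 had 2 other shared regions and Rgs3 had 1, whereas Srgap1 and Sipa1l3 had none. All 1004 of the 32-base words of the Srgap1 region occurred once in the assembly. The same was true of the intronic regions of Rgs3, Sipa1l3 and Odz4, while the intergenic regions had 99% and 84.2% of words occurring once.

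Srgap3, which encodes a GTPase-activating protein known from brain development and RAC1 signalling, also held its shared region in intron 1 of 21. The gene is 229.3 kb long at chr6:112667965-112897260 on the minus strand, and the region at chr6:112846343-112846768 was 50.7 kb from the start in an intron of 116.8 kb. It scored 148.94 in S1 with a width of 552 bp and 220.76 in S4 with a width of 502 bp. S4 exceeded S1 by 0.57 on the log2 scale, and 38.3% of all shared regions differed more. The next shared region was 388.8 kb away, downstream of the gene, and scored 297.77 in S1 and 423.78 in S4. Srgap1 and Srgap3 thus shared the position of the region, in a long intron 1, but not its score.

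S4 had 2 more peaks at Srgap3 without a partner in S1. The higher, at chr6:112678679-112679559 in intron 20 of 21, scored 192.02. The lower, at chr6:112995858-112996403, scored 143.44 and was at -0.0890 kb from the start of Thumpd3. At 98.9 kb upstream of Srgap3 the lower peak was the one closest to the limit of 100 kb.

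Srgap2, whose protein shapes neuronal spines and filopodia, was the SRGAP gene with no shared region. Its body of 242.1 kb lies at chr1:133181828-133423938 on the minus strand. S1 had 1 peak, at chr1:133520791-133521497 with a score of 274.38, 97.2 kb upstream and at -13.7 kb from the start of Ctse. S4 had 3 peaks. The highest, at chr1:133241899-133243099 in intron 8 of 22, scored 445.07 and was 1201 bp wide, yet S1 had no peak there. It ranked 883 of 5441, above all other peaks of the set found in 1 library. The other S4 peaks scored 149.02 in intron 21 of 22, at a position that is an exon of another transcript, and 143.73 in an intron of Rassf5, 96.5 kb past the end of Srgap2.

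The limit of 100 kb fell between close values. Just inside it were the peaks at 98.9, 97.2 and 96.5 kb from Srgap3 and Srgap2. Just outside were the Slit2 peaks at 113.4 kb, an S1 peak at 128.8 kb from Srgap3 with a score of 159.77, and an S4 peak at 146.7 kb from Srgap2 with a score of 153.51. Shared regions also lay 175.5 kb upstream of Slit1, scoring 145.09 in S1 and 312.84 in S4, and 177.2 kb downstream of Robo1, scoring 373.53 and 299.32.

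Most of the peaks near the members had low scores. The median score was 176 in S1, against 211.8 over all S1 peaks, and 173.3 in S4, against 223.2. Scores under 200 were held by 5 of 8 peaks in S1, against 46.2% of the list, and by 11 of 16 in S4, against 41.6%. The shared peaks near the members had medians of 183.4 in S1 and 220.8 in S4, where all shared peaks had 278.7 and 315.1. Widths were nearer to the lists, with medians of 612 bp in S1 against 625 bp, and 688.5 bp in S4 against 783 bp. The stretch covered by both peaks had a median of 426 bp over the 5 regions and of 627.5 bp over all shared regions.

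The scores of a region in S1 and S4 were not always close. Within 2-fold of each other were 3 of 5, against 85.6% of all shared regions, and the Robo2 and Slit3 intron 7 regions were the exceptions, in opposite directions. Over the 5 regions the log2 ratios, S4 over S1, had a median of 0.00, and over all 2546 it was 0.16. The 0.00 is the ratio of the Srgap1 region, whose scores are tied at the possible ceiling, and that tie is also among the 3 within 2-fold. The plot of paired scores places these regions among all others.

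**Figure D3:**
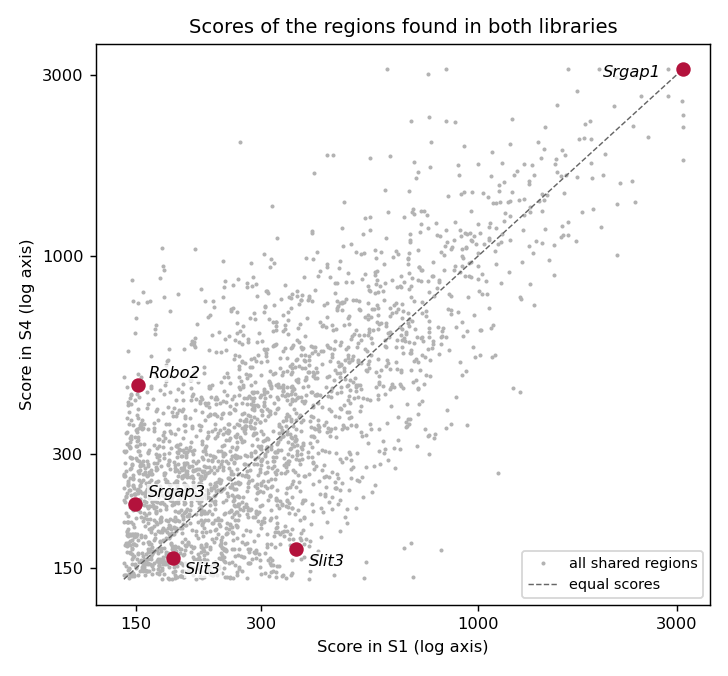
Score in S4 against score in S1 for all 2546 shared regions (grey points), both on log axes, with the 5 regions of Slit3, Robo2, Srgap1 and Srgap3 in red and a dashed line for equal scores. Srgap1 is at the top right corner with 3100 in both, Robo2 lies above the line with 151.29 and 455.56, and the Slit3 region of intron 7 lies below it with 364.47 and 168.03.

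By position, all 5 shared regions were intronic, against 40.7% of all shared regions. Of the latter, 39.1% were intergenic, 17.1% within 1 kb of a transcript start and 3.06% in exons. The sets are unlike, because gene bodies made up 2.71 of the 4.51 Mb searched near the members. The 40.7% covers the whole genome, including regions far from any gene. With the limit at 200 kb, 5 of the 9 regions near the members were intronic (55.6%). No peak of either library lay within 1 kb of the start of a member's own transcript, and the nearest was the Robo2 region, 5.35 kb in S1 from the start of a shorter Robo2 transcript. Of the peaks found in 1 library, 5 of 11 in S4 and 1 of 3 in S1 lay at a transcript start, against 27.8% and 26.9% of all such peaks, and none of those starts was of a member.

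Sequence was not used to choose the regions. The motifs, however, were chosen with earlier results of these data known, so their shares over all shared regions are no independent check. In windows reaching 100 bp to either side of the centre of the stretch common to both peaks, AAGTG was found in 3 of 5 regions, against 64.0% of all shared regions and 39.4% of flanks 2 kb away. TNAAGTG, which contains AAGTG, was found in 1 of 5 (32.4% and 11.3%). TGACA was found in 3 of 5 (64.5% and 40.1%). GTGNTGACA, which contains TGACA, was found in 0 of 5 (9.54% and 0.864%). Matches were counted exactly and on both strands. No test was made on these 5 regions. Around the midpoints of the peaks found in 1 library, AAGTG was in 1 of 3 in S1 and 7 of 11 in S4, against 56.6% and 53.4% of all such peaks. TGACA was in 2 of 3 and 9 of 11, against 50.6% and 50.3%.

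Over the whole common stretch, each of the 5 regions held AAGTG and TGACA, as 89.9% and 86.8% of all shared regions did. The longer form TNAAGTG was in 3 of 5 (54.7%), as TTAAGTG at 2 places in Slit3 intron 7, TAAAGTG in Srgap1 and TCAAGTG in Srgap3. GTGNTGACA was in 2 of 5 (15.4%), Srgap1 and Slit3 intron 7. Peak summits were not used here, so distances are from its centre. The plot of motif positions gives every match.

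**Figure D4:**
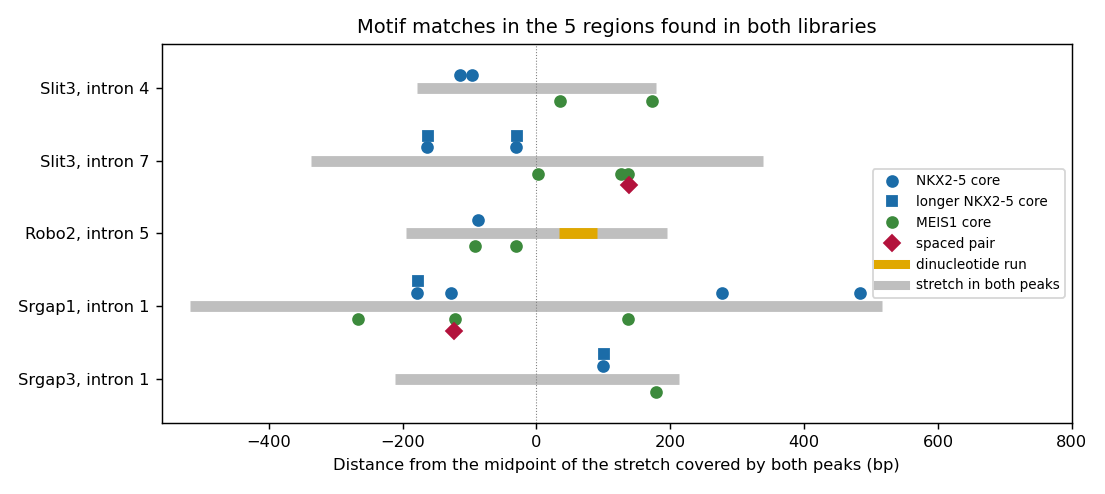
Motif matches in the 5 regions found in both libraries, in bp from the centre of the stretch common to both peaks (grey bars). Blue circles are the NKX2-5 core AAGTG, blue squares its longer form TNAAGTG, green circles the MEIS1 core TGACA, red diamonds the spaced pair GTGNTGACA, and the yellow bar is the run of alternating C and T at Robo2. The diamonds are at -123 bp in Srgap1 and at 139 bp in Slit3 intron 7.

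Srgap1 held 4 AAGTG and 3 TGACA in its 1035 bp, the longest stretch of the 5, and 0 of either within 100 bp of the centre. Slit3 intron 4 held 2 and 2 in 359 bp, and Slit3 intron 7 held 2 and 3 in 676 bp. An AAGTG at chr10:121462496-121462500 ran into the spaced pair at chr10:121462498-121462506, so the sequence shown above reads AAGTGTTGACA, a full NKX2-5 core 1 base before a full MEIS1 core. This joined form, with any base between the cores, and a window of 150 bp were chosen after this sequence was seen. Within 150 bp of the centre it occurred in 33 of 2546 shared regions (1.30%) and in 0.177% of the flanks, and GTGNTGACA in 12.3% and 1.22%. In Slit3 intron 7 the pair was GTGATGACA on the minus strand, at 139 bp from the centre, with no AAGTG joined to it.

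The Robo2 region had a different arrangement. In it TGACA was followed directly by AAGTG at chr16:74022694-74022703, without a spacer and in the reverse order. The region also held a run of alternating C and T over 58 bp at chr16:74022822-74022879, and 0.432% of all shared regions had a run as long. Of the 32-base words of this region, 294 of 360 (81.7%) occurred once in the assembly, and the most frequent occurred 800351 times, counting both strands. In both Slit3 regions, Srgap1 and Srgap3 all words occurred once. The part of the run in the difference between the libraries was not tested. Srgap3 had 1 AAGTG and 1 TGACA, at 100 and 179 bp from the centre.

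The rest of the pathway was taken from a list of 20 genes, among them Robo3, the GTPases Cdc42, Rac1 and Rhoa, the kinases Abl1, Abl2 and Pak1, and the adaptors Nck1 and Nck2. Counts over this list are descriptions only, because it was chosen with earlier results of these data known. A peak within 100 kb was found at 13 of 20 in S1, against 38.4% of protein-coding genes, and at 13 of 20 in S4, against 44.7%. A shared region was found at 4 of 20, against 24.3% of protein-coding genes. These were Nck1, the heparan sulfate proteoglycan gene Gpc1, and Cap1 and Cap2, which encode actin-binding cyclase-associated proteins. Nck1, Gpc1 and Cap1 are named after their values were seen. Cap2 had 3 shared regions within 100 kb and was the 1 gene of the list with a shared region inside its body. That region was in intron 1 of 12 at chr13:46610681-46610946, 13.6 kb from the start, scoring 193.37 in S1 and 186 in S4. This 1 region was far below the 3100 of Srgap1. The scores of shared regions outside the bodies of the 20 genes were not compared.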

How the data were processed

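The authors used BOWTIE for alignment to mm9 and MACS 1.4 for peak calling, per the methods of the study and the submitters' processing notes. The settings of these tools, the version of BOWTIE and whether Input served as control are not given in the sources used here. A separate list for S1 and for S4 was deposited, and the deposited score is 10 times the negative log10 of a p-value, as read from the values, with 140 as the lowest. Positions are counted from 1. The members, motifs and gene lists were chosen with earlier results of these data known.

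Peaks whose midpoint lay within 100 kb of a member's GENCODE M1 body were kept. Peaks that overlapped by at least 1 bp were shared and merged into regions. Promoters were positions within 1 kb of a transcript start. Introns were numbered on the longest transcript. Bases were read from the NCBIM37 assembly, which is mm9. All members were named, with each shared region, the highest peak of each member found in 1 library, and regions like that of Srgap1, intronic and at the top score of both lists. Of 20 pathway genes, those with a shared region inside the body were to be named. The lowest peaks, the count of 32-base words, the run of C and T and the joined motif were added after the data were seen.

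The alternatives were distances of 0, 50 and 200 kb, a score of at least 200, merging within 1 kb, overlap of 50%, midpoints within 150 bp, protein-coding transcripts only, a promoter limit of 5 kb, other motif windows, and each library left out. The procedures were tested on simulated data. Intervals are exact Clopper-Pearson intervals at 0.95 and cover counting error only. Software versions were Python 3.11.15, numpy 2.4.6, pysam 0.24.0, scipy 1.17.1 and, for plots, matplotlib 3.10.9.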

Additional observations from a re-analysis of the deposited data

How the results depend on the processing

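No value near the members came from a test. Of 91 alternatives, 77 left the value in place. For this, counts and the density had to stay within 1.5 times, and other values within their spread or interval. The median log2 ratio has no spread here and had to stay the same to 2 decimals. Together these limits are a weak check of stability. With 2 libraries, leaving 1 out cannot move a mean beyond their SD, the limit used for the width and the Srgap1 score. Intervals on so few regions were wide, so the spaced pair at 0% and at 40.0% of regions counted as within them. A score of at least 200 moved most. It left a mean of 4 peaks per library instead of 12.0, 1 shared region and 1 member with one, which was Srgap1, at 0.222 per Mb, a median width of 928 bp instead of 650.2 bp, and AAGTG in 0% of windows. With the gene bodies alone, 7.5 peaks and 1.85 shared regions per Mb were found. With 200 kb there were 9 shared regions at 7 members, and the share in introns was 55.6% instead of 100%. The median log2 ratio of 0.00 became 0.14 with 200 kb and, separately, 0.28 with midpoints within 150 bp. AAGTG was in 60.0% of windows of 100 bp, 0% of those of 25 bp and 100% of whole stretches. Leaving out S1 or S4 gave 8 to 16 peaks, a median width of 612 to 688.5 bp, and a Srgap1 score 6.80 to 8.51 times that of the next member (7.66 in the mean). No paired analysis was possible because the values come from no test and S1 and S4 belong to 1 condition. Depth is unknown, so a peak missing from 1 library is not shown to be unbound there.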
